A study of Mus musculus with 12 samples.

Results

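K35 and K27 are a pair of small molecules, K27 being an analog of K35, that came out of a screen for compounds able to disperse aggregates of the glycolytic enzyme PKM2. The comparison described here is that of mouse livers exposed to doxorubicin together with K35 (group DOX + K35) against livers exposed to doxorubicin together with K27 (group DOX + K27). Within the deposited table, members were chosen by sample label and by level. The table itself is named as one of differentially expressed genes, so its rows had passed a choice of the authors on differences between groups, and which comparisons and limits made that choice is not given in the sources used here. The members were 6 of the 12 libraries of the series, 3 for each compound, and the 3317 of 3799 deposited genes whose mean over the 12 libraries was at least 1 FPKM. Both compounds are called here by their code names, and no structural difference between them is described.

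The animals of all 4 groups were male C57BL/6J mice, 8 weeks old, without any transgene. Doxorubicin, an anticancer drug that damages DNA, was injected into the peritoneum at 10 mg/kg on days 0 and 7. K35 or K27 was given into the stomach at 50 mg/kg every other day starting on day 2, and livers were collected on day 20. The DOX group had doxorubicin with vehicle, and the Saline group, which the labels name vehicle, had saline in place of doxorubicin. Dose, route and times were thus matched between K35 and K27, and 1 pair of compounds was compared. The question this comparison addresses is which genes and functions tell the liver responses to K35 and K27 apart.

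Polyadenylated RNA of each liver was sequenced, and the authors deposited a length-scaled value per gene and library. No unit stands in the header. The values are read here as FPKM, that is sequenced fragments scaled by transcript length and library size. A difference is given below as DOX + K35 minus DOX + K27 on the log2(FPKM + 1) scale, which understates the change of genes with low values. A gene is said to be called higher or lower when its adjusted p in limma (Benjamini-Hochberg over the 3317 genes, all 12 libraries in the fit) was under 0.05. Each result is read in 4 settings: the values as deposited, the values after median-ratio scaling (which divides each library by the median of its ratios to the average library), and both of these again without library C4 of DOX + K35. As the table holds genes selected by the authors for differential expression, shares of genes below refer to that selection and not to the transcriptome. The adjusted p was computed within that selection too, so the share of false calls at the 0.05 threshold is not known.

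Library C4 stood apart. Its log2 values correlated across genes with those of DOX + K35 replicates 1 and 2 at 0.934 and 0.923, against 0.991 between those replicates and 0.963 to 0.989 within DOX + K27 (Pearson, genes are not independent). The labels give the remaining DOX + K35 library another code than C4, so C4 was used by group only, as were libraries B3 and B4 of DOX. Mitochondrially encoded genes made up 37.9%, 39.5% and 48.7% of the summed FPKM of the table in DOX + K35 replicates 1 and 2 and C4, and 50.01%, 53.7% and 68.0% in DOX + K27 replicates 1, 2 and 3. The part of this difference in the results was not tested. Of the hepatocyte marker list, 5 of 10 genes were in the table, and their summed level was 8041 to 9305 FPKM in DOX + K35 and 9532 to 11454 in DOX + K27. The sum went against most of its members, since the differences of *Apob*, *Cps1*, *Cyp3a11* and *Tat* were positive (0.67 to 1.21) and that of *Apoa1* alone was negative (−0.70), none of them called as deposited. Kupffer cell and macrophage markers (9 of 16 in the table) summed to 80.2 to 138.0 and 88.2 to 151.6 FPKM, and erythroid markers (6 of 11 in the table) to 73.6 to 603 and 456 to 1078, with C4 lowest in both lists. Lymphocytes and neutrophils were represented by 1 gene each, at most 3.95 FPKM for the former and 3.70 for the latter, and none of 13 pancreas and gut markers was in the table. In such bulk samples, fewer cells of a type and less RNA per cell cannot be told apart.

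As deposited, 70 genes differed between DOX + K35 and DOX + K27, of which 14 (0.422% of the genes tested) were higher and 56 (1.69%) were lower in DOX + K35. After median-ratio scaling the calls were 158 higher (4.76%) and 132 lower (3.98%). Without C4 they were 44 higher (1.33%) and 140 lower (4.22%), and with both changes 462 higher (13.9%) and 286 lower (8.62%). The balance of the directions therefore moved with the scaling, lower genes leading as deposited and higher genes leading after scaling. The median difference of all genes was 0.095 as deposited and 0.071 after scaling. Leaving DOX library B4 out of the fit, without scaling, also gave more calls, 145 higher and 137 lower. Why the counts moved was not tested. All 70 genes called as deposited were called again after scaling, and 58 of them without C4. In the same direction in all 4 settings, 13 genes (0.392%) were higher and 44 genes (1.33%) were lower in DOX + K35. Of the 777 genes called in at least 1 setting, 0 were called in opposite directions. Lack of overlap was common among the genes tested, since the DOX + K35 libraries lay wholly above those of DOX + K27 for 30.6% of them and wholly below for 18.9%.

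**Figure D1:**
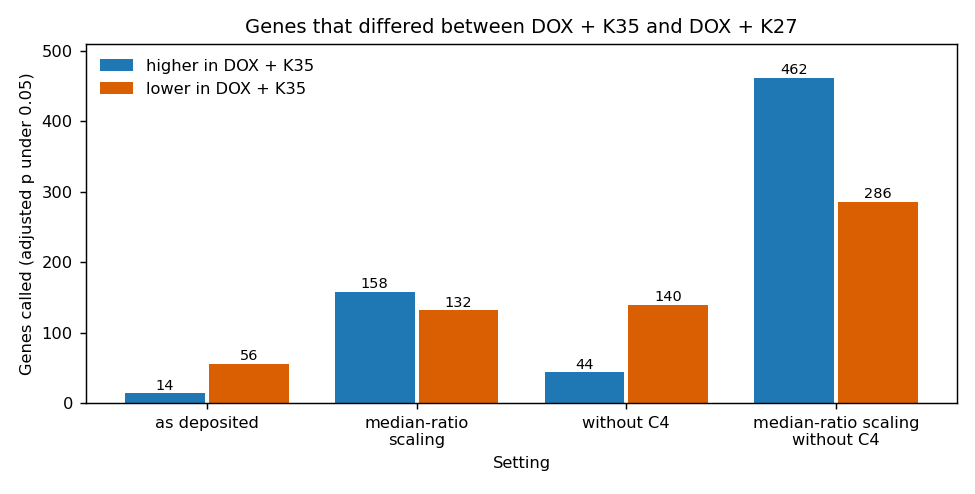
Bars give the number of genes called higher (blue) or lower (orange) in DOX + K35 than in DOX + K27 (y axis, limma adjusted p under 0.05, of 3317 genes tested) in each of the 4 settings (x axis). Lower genes outnumber higher ones 56 to 14 as deposited, while after median-ratio scaling without library C4 the higher genes lead with 462 to 286.

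Interferon-stimulated genes were 12 of the 44 genes lower in all 4 settings. Interferons are secreted alarm proteins that act through the JAK-STAT pathway. Transcription factors activated in this way then bind a DNA motif called the interferon-stimulated response element and turn on a large set of antiviral genes. In liver, both hepatocytes and resident macrophages can mount this response. The list used here was written when genes that differ between these groups were already known, so its direction is not independent evidence.

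Of the 51 interferon-stimulated genes tested, 14 were called lower in DOX + K35 as deposited, 23 after scaling, 12 without C4 and 21 with both changes, and 0 were called higher in any of the 4 settings. The lower calls were, in that order, 27.5%, 45.1%, 23.5% and 41.2% of the list. Over all genes tested, the shares called lower were 1.69%, 3.98%, 4.22% and 8.62%. The list's median difference was −1.19 as deposited and −1.18 after scaling, and −0.93 and −0.89 in the same settings without C4, beside medians of 0.10, 0.07, 0.10 and 0.13 over all genes tested. All 51 differences were negative as deposited, and 48 were negative without C4. The DOX + K35 libraries lay wholly below those of DOX + K27 for 30 of the 51 genes, beside 18.9% of all genes. The mean log2(FPKM + 1) over the list was 1.503 to 2.66 in the libraries of DOX + K35 and 2.87 to 3.86 in those of DOX + K27, with 2.33 to 3.40 in Saline and 2.06 to 2.61 in DOX. So the DOX + K27 libraries lay above all DOX libraries, and those of DOX + K35 overlapped with DOX.

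*Isg15*, a ubiquitin-like protein that is joined to other proteins during the interferon response (GRCm38 chromosome 4, 156199424 to 156200818, minus strand), had the largest difference of any gene called in all 4 settings. It measured 11.96, 12.1 and 1.31 FPKM in DOX + K35 replicates 1 and 2 and C4, and 50.3, 79.4 and 24.8 in DOX + K27 replicates 1, 2 and 3. The 3 libraries of DOX stood at 13.7 to 24.01 FPKM and those of Saline at 9.36 to 33.5, so DOX + K35 replicates 1 and 2 were close to the lower end of both, C4 was far below it, and DOX + K27 replicates 1 and 2 were above both. The group means were 8.46 ± 6.19 and 51.5 ± 27.3 FPKM (SD, n = 3), 6.09-fold higher in DOX + K27. The difference of −2.69 (standard error 0.63, 95% interval −4.03 to −1.35) had an adjusted p of 0.0389 and was −1.86 without C4 (limma adjusted p = 0.0490). When each of the 12 libraries was left out in turn, *Isg15* kept the call 7 times, with differences of −3.13 to −1.86.

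*Mx1*, of a family of GTPase genes (chromosome 16, 97447035 to 97462907), showed 0.523, 0.383 and 0.108 FPKM in the DOX + K35 libraries and 3.70, 3.49 and 2.20 in those of DOX + K27. The ratio of means was 9.25, at levels near or below 1 FPKM in DOX + K35, and the difference was −1.62 as deposited (adjusted p = 0.00544) and −1.49 without C4 (limma adjusted p = 0.0169). Its neighbour *Mx2*, annotated as a polymorphic pseudogene, measured 2.35, 1.69 and 2.21 FPKM against 6.52, 14.6 and 6.13. Here C4 was not the lowest of its group, and leaving it out changed the difference from −1.62 to −1.65. *Oas2*, a member of the oligoadenylate synthetase family that senses double-stranded RNA (chromosome 5, 120730333 to 120749853), measured 1.28, 1.14 and 0.619 FPKM against 6.98, 6.37 and 4.62, with DOX at 2.69 to 6.02 and Saline at 1.32 to 3.76. For *Oas2* the DOX + K27 libraries overlapped with DOX, and the DOX + K35 libraries were below each library of DOX.

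*Xaf1*, an inducer of cell death (chromosome 11, 72301629 to 72313733), stood at 3.95, 3.48 and 0.818 FPKM in DOX + K35 and 13.1, 15.4 and 8.23 in DOX + K27, a difference of −1.91 (standard error 0.39, limma adjusted p = 0.0271). *Ifit3*, which binds viral RNA in a complex with its relatives, measured 8.84, 8.83 and 0.894 FPKM against 34.2, 38.9 and 12.02. Its difference of −2.21 did not pass the threshold as deposited (limma adjusted p = 0.0651), passed after scaling (0.0426) and was −1.42 without C4. *Ifi27l2a* was called as deposited (−1.98, limma adjusted p = 0.0376) and lost without C4 (−1.43, adjusted p = 0.0527), as was *Slfn5*, a Schlafen gene (−0.84, limma adjusted p = 0.0485, and −0.70 without C4, adjusted p = 0.0633). *Ddx60*, an RNA helicase, was low in both groups, with 0.406, 0.850 and 0.365 FPKM against 3.49, 3.48 and 1.87, and its difference of −1.34 was called with every one of the 12 libraries left out in turn. The other list members called in all 4 settings were *Oasl2* (−1.67), *Oas1b* (−1.53), *Oas1g* (−1.41), *Sp100* (−1.28), *Phf11d* (−1.12) and *Trim30a* (−1.12).

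Regulators of the pathway were read as well. *Stat2* stood at 12.1, 10.4 and 12.4 FPKM against 23.7, 28.6 and 27.7, without overlap, at −1.13 (limma adjusted p = 0.0940). *Irf7*, the factor that amplifies the response, measured 19.0, 22.5 and 9.78 FPKM against 77.01, 60.8 and 26.5, at −1.57 (limma adjusted p = 0.0826). *Usp18*, which removes ISG15 from proteins and dampens interferon signalling, was called after scaling (−1.68, limma adjusted p = 0.0412) but not as deposited. Among members known to respond to interferon gamma, differences ran from *Gbp2* at −0.40 (95% interval −1.44 to 0.64) and *Tgtp1* at −0.43 (95% interval −2.09 to 1.22) over *Igtp* at −0.99, *Gbp6* at −1.22 and *Cxcl10* at −1.28 to *Gbp3* at −1.915, and these 6 were not called in any of the 4 settings. Without C4 they moved to 0.07, −0.01, −0.18, −0.44, −0.78 and −1.02 in the same order.

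**Figure D2:**
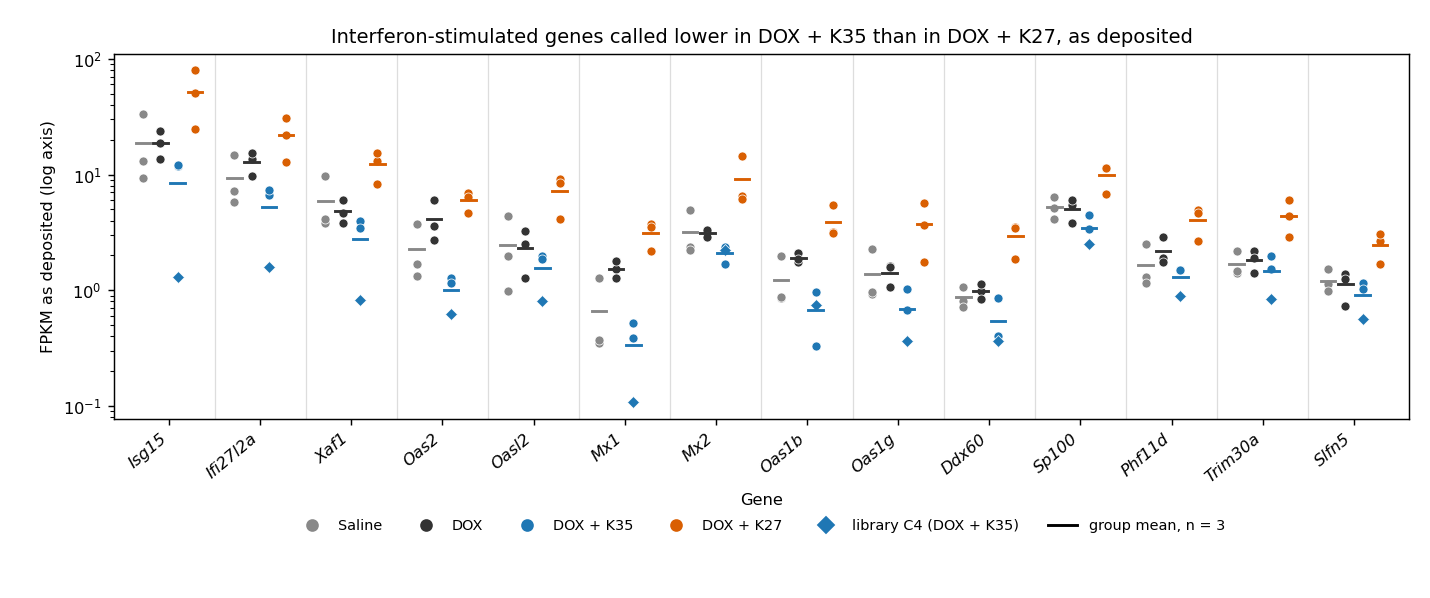
Each point is the FPKM of a library as deposited (log y axis) for the 14 interferon-stimulated genes called lower in DOX + K35 (x axis), with the 4 groups in separate columns, library C4 as a diamond and a bar at the group mean. DOX + K27 has the highest group mean for each gene, and C4 is the lowest point for *Isg15*, at 1.31 FPKM against 50.3, 79.4 and 24.8 in DOX + K27.

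C4 was the lowest of the 6 libraries for 46 of the 51 genes of the list, against 14.6% of all genes tested, and DOX + K27 replicate 3 was the lowest library of its group for 48 of the 51, against 50.4% of all genes. Summed over the list, DOX + K35 replicates 1 and 2 and C4 reached 484, 461 and 170 FPKM and DOX + K27 replicates 1, 2 and 3 reached 1002, 1094 and 517. The lowest DOX + K27 library was thus close to the highest DOX + K35 library. Saline replicate 3, with 1034 FPKM, was as high as the upper DOX + K27 libraries, while the other Saline libraries stood at 360 and 447. Antigen presentation genes, many of which interferon gamma raises, gave 0 calls as deposited among 8 tested (median −0.71). The exception across the settings was *Nlrc5*, the transactivator of MHC class I genes, which was called lower without C4 (−1.25, limma adjusted p = 0.0417).

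Promoter sequences were read next to these values. RefSeq windows on GRCm38.p6, from 250 bases before to 50 after each start, were found for 35 of the 51 interferon-stimulated genes. The letters GAAANNGAAA, a core of the interferon-stimulated response element, were searched on both strands, overlapping matches included. They occurred for 19 of these 35 genes (54.3%), for 104 of the 2466 tested genes with a window (4.22%) and in 3.44% of all 32851 windows. Among genes lower in all 4 settings but not on the interferon list they occurred for 5 of 18 (27.8%), namely for *Mndal*, *Ifi213*, *Phf11b* and *Slfn8* before the start and for *Trim34a* with no match wholly before it. Of all 26 genes lower in all 4 settings with a window, 9 (34.6%) held them. Of the 11 genes higher in all 4 settings with a window, 0 held them. A match is a description of the letters and was not measured as a binding site. A selection of stretches that hold matches before the start is shown 5′ to 3′ on the gene's strand, with the matched bases in capitals. Lower genes without a match are not shown. Of the genes shown, *Ifit3* was called in 2 of the 4 settings and the others in all 4. Capitals that begin with TTTC are the motif read on the other strand.
Isg15 (chr4:156200855-156200916, minus strand): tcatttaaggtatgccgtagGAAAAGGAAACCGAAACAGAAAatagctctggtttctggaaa
Ifit3 (chr19:34583353-34583436, plus strand): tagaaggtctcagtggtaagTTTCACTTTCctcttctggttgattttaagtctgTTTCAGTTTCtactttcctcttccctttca
Ddx60 (chr8:61928014-61928086, plus strand): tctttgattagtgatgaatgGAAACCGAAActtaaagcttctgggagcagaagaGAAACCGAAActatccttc
Oas1g (chr5:120887614-120887651, minus strand): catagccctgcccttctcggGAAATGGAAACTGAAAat
Trim30a (chr7:104465200-104465249, minus strand): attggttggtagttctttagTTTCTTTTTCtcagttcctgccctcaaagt
Ifi213 (chr1:173599316-173599365, minus strand): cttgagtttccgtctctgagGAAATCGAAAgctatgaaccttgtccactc
Mndal (chr1:173880194-173880243, minus strand): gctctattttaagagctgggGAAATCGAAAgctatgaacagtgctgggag
Phf11b (chr14:59341351-59341400, minus strand): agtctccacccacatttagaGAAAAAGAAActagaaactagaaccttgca
Slfn8 (chr11:83020829-83020878, minus strand): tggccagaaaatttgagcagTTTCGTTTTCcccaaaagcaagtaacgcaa
The promoter of *Isg15* carries 3 overlapping matches and that of *Oas1g* 2, and the matches of *Ifi213* and *Mndal* have the same letters.

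Many of the lower genes lie next to each other. Of the 31 genes lower in all 4 settings that have a position in GENCODE M21, 14 fall into 6 clusters in which neighbours are at most 500 kb apart. These are *Ifi213*, *Ifi209* and *Mndal* on chromosome 1 (173566283 to 173942491), *Oas2*, *Oas1b* and *Oas1g* on chromosome 5 (120730333 to 120887613), *Trim34a* and *Trim30a* on chromosome 7, *Slfn8* and *Slfn4* on chromosome 11, *Phf11b* and *Phf11d* on chromosome 14, and *Mx1* and *Mx2* on chromosome 16. Each cluster holds related genes of similar sequence, between which reads can be split, so the value of a single member is less certain than that of the cluster. *Mndal* overlaps *Ifi203* and *Ifi211* on its own strand, which makes its value uncertain too. *Slfn4*, a Schlafen gene of myeloid cells, measured 0.554, 0.609 and 0.740 FPKM in DOX + K35 and 6.70, 7.17 and 3.12 in DOX + K27, an 8.93-fold ratio of means with C4 the highest library of its group. *Mndal* stood at 5.92, 5.14 and 2.96 FPKM against 21.05, 23.1 and 16.4, and *Ifi213* at 0.856, 0.531 and 0.227 against 4.71, 5.59 and 2.21. The differences were −1.97, −1.93 and −1.71 (limma adjusted p = 0.00544, 0.00712 and 0.00712), and these 3 genes were called with each of the 12 libraries left out in turn.

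Genes of other functions were lower in DOX + K35 as well. The largest such difference among genes of lipid metabolism was that of *Fads3*, a member of the fatty acid desaturase family (chromosome 19, 10041569 to 10060110, plus strand). It measured 2.55, 2.65 and 1.66 FPKM in DOX + K35 and 7.48, 14.1 and 12.4 in DOX + K27, with 5.88 to 9.01 in DOX and 6.22 to 9.57 in Saline. The DOX + K35 libraries were below those of the other 3 groups. The difference was −1.88 (standard error 0.27, 95% interval −2.46 to −1.31, limma adjusted p = 0.00544), and *Fads3* was called in all 4 settings and with each library left out. *Lgals4*, a galectin best known from the gut lining, measured 2.96, 4.02 and 11.1 FPKM against 14.0, 23.2 and 34.3. C4 was nearer to DOX + K27 here, and the difference grew from −1.91 to −2.39 without it.

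*Plgrkt*, a plasminogen receptor, stood at 6.10, 5.06 and 5.89 FPKM in DOX + K35 and 14.8, 13.8 and 22.4 in DOX + K27. It was at 15.2 to 17.5 FPKM in DOX, so the DOX + K27 libraries were near the DOX level and those of DOX + K35 were below it. *Fbf1*, a component of the ciliary base, measured 2.90, 1.61 and 2.90 FPKM against 7.79, 7.23 and 7.88, a difference of −1.34 (limma adjusted p = 0.0163). DOX stood at 1.54 to 3.97 FPKM and Saline at 5.68 to 5.93, so for this gene the DOX + K27 libraries were above both. *Mapk15*, an atypical MAP kinase (−1.14), *Tgfbr3l* (−1.11), *Slc25a34*, a mitochondrial carrier (−1.09), *Nab2*, a corepressor of EGR factors (−1.08), *Tbc1d10a*, which switches off Rab proteins (−1.07), *Ccdc163* (−1.04), *Syce2*, a protein of the synaptonemal complex (−0.98), and *Caprin2* (−0.81) completed the genes outside the interferon families that were lower in all 4 settings. *Ccdc163* shares its strand with the overlapping *Tesk2*, and *Syce2* overlaps *Gcdh* on the other strand. *Nab2* likewise overlaps *Stat6* and *Nemp1* on the other strand, and the library kit does not mark strand, so these values are uncertain.

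The remaining 13 of the 44 genes lower in all 4 settings were loci newly assembled by the authors, which carry no symbol. Such loci made up 188 of the 3317 genes tested (5.67%) but 29.5% of the genes lower in all 4 settings and 0 of the 13 that were higher. As deposited, 16 of the 188 were lower and 0 higher, and after scaling without C4 47 were lower and 5 higher. The lower loci were 28.6% and 16.4% of all genes called lower in these 2 settings, and the 5 higher loci were 1.08% of all genes called higher. Their median difference was −0.51 as deposited and −0.56 after scaling without C4. The files give neither position nor sequence for them, and what they encode was not analysed here. Several lower genes depended on C4 or on the scaling. *Nr1d1*, the clock repressor REV-ERB alpha, measured 18.6, 28.0 and 10.8 FPKM against 55.1, 67.2 and 63.1 and was called as deposited (−1.73, limma adjusted p = 0.0372) but not without C4 (−1.39, adjusted p = 0.0574). The same held for *Gdf15*, a stress hormone and p53 target, at 2.39, 3.57 and 1.31 FPKM against 6.88, 6.49 and 10.9 (−1.43), for the glutathione transferase *Gstt2* at 53.5, 41.5 and 34.9 against 122, 76.4 and 131 (−1.31), and for *Gm28035* (−1.43).

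Genes higher in DOX + K35 in all 4 settings were fewer, and for most of them the DOX + K35 libraries stood above those of DOX and Saline too. *Ctps*, the CTP synthase that makes cytidine nucleotides (chromosome 4, 120539868 to 120570276, minus strand), measured 2.73, 2.02 and 3.08 FPKM in DOX + K35 and 0.672, 0.856 and 0.707 in DOX + K27. DOX stood at 0.324 to 1.08 FPKM and Saline at 0.454 to 0.642, so DOX + K35 was alone above 2 FPKM. The means differed 3.50-fold, and the difference of 1.04 (standard error 0.18, 95% interval 0.65 to 1.43, limma adjusted p = 0.0133) was called in all 4 settings and with each library left out. Among the 13 genes, *Ctps* was the one that never lost the call in those 12 fits, and the others kept it in 4 to 10.

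*Acaca*, the acetyl-CoA carboxylase that commits carbon to fatty acid synthesis (chromosome 11, 84129672 to 84401651), measured 17.2, 16.7 and 23.2 FPKM in DOX + K35 and 8.86, 6.04 and 6.03 in DOX + K27, a difference of 1.33 (95% interval 0.75 to 1.92, limma adjusted p = 0.0271). *Tfrc*, the transferrin receptor that takes up iron, stood at 11.2, 6.13 and 11.1 FPKM against 2.99, 3.01 and 4.01. *Tfrc* is on the erythroid list as well, whose globin genes were lowest in C4, while its own value in C4 was among the highest. *Nomo1*, a protein of the endoplasmic reticulum membrane, measured 11.1, 11.2 and 11.5 FPKM against 4.67, 4.19 and 3.50. Its DOX + K35 libraries were close to each other and above those of all other groups. *Lrp5*, a co-receptor of Wnt proteins, stood at 7.999, 9.18 and 9.55 FPKM against 2.83, 3.998 and 4.55, and *Wnt5b*, a Wnt ligand, at 3.66, 3.19 and 4.90 against 2.20, 1.03 and 1.08. Their differences were 1.06 and 1.03 (limma adjusted p = 0.0372 and 0.0271).

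*Prkar2a*, a regulatory subunit of protein kinase A, measured 12.2, 12.6 and 11.2 FPKM against 6.57, 5.50 and 4.40, and *Lrrc8a*, the essential subunit of the volume-regulated anion channel, 2.93, 4.35 and 3.42 against 1.78, 1.86 and 1.40. *Lrrc8a* is overlapped on its strand by *Gm28035*, which was lower in DOX + K35, so both values are uncertain. *Rcan2*, a calcineurin regulator, stood at 2.89, 3.39 and 2.86 FPKM against 1.66, 1.64 and 1.205. For *Rcan2* Saline was at 3.10 to 3.50 and DOX at 0.587 to 1.02, so the DOX + K35 libraries were near Saline and those of DOX + K27 lay between DOX and Saline. The other genes of this group were *Gm14403* (1.46), *Insc*, an adaptor of spindle orientation (1.18), *Epop*, a partner of Polycomb complexes (0.90), and *Trmt61a*, the catalytic subunit of a tRNA methyltransferase (0.71). *Spsb3* (0.94) was called as deposited and missed the threshold without C4 (0.82, limma adjusted p = 0.0571).

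**Figure D3:**
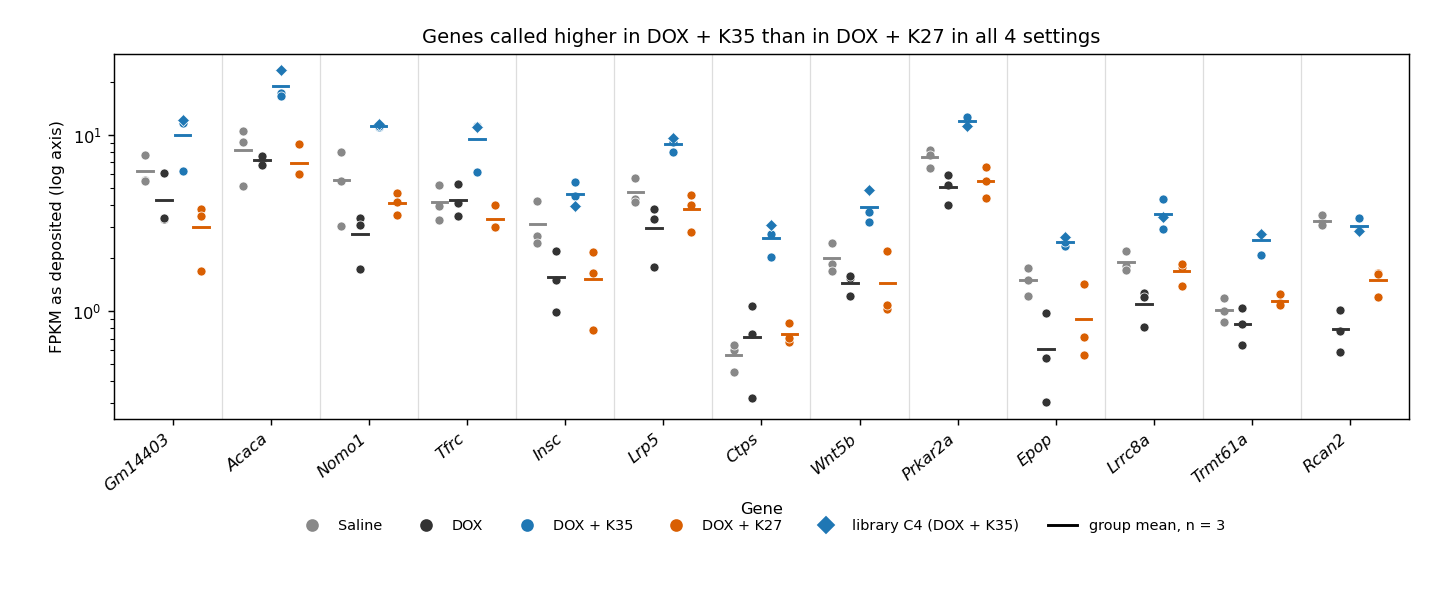
Each point is the FPKM of a library as deposited (log y axis) for the 13 genes called higher in DOX + K35 in all 4 settings (x axis), by group, with library C4 as a diamond and a bar at the group mean. *Ctps* is the clearest case, with DOX + K35 at 2.73, 2.02 and 3.08 FPKM and the libraries of the other groups at 1.08 or less, while for *Rcan2* DOX + K35 sits beside Saline.

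Beyond these genes, the lists were read for how many members moved. Fat and sterol synthesis is run in liver by the factors SREBP-1, SREBP-2 and ChREBP, which respond to insulin, sterols and sugar. Of 20 such genes tested, 18 had positive differences in each of the 4 settings. As deposited 1 was called higher (*Acaca*) and 1 lower (*Fads3*), after scaling 2 and 1, without C4 4 and 2, and with both changes 10 and 2. These counts of 20 are read beside the shares of all genes called higher and lower, which rose as well, from 0.422% and 1.69% as deposited over 4.76% and 3.98% after scaling and 1.33% and 4.22% without C4 to 13.9% and 8.62% with both changes. With both changes the list's shares were 50% and 10%. The median difference was 0.82 as deposited, 0.78 after scaling and 1.19 and 1.22 without C4. The DOX + K35 libraries lay wholly above those of DOX + K27 for 6 of the 20 genes, near the 30.6% of all genes. The list's mean log2 value was 5.98 and 5.80 in DOX + K35 replicates 1 and 2. C4, at 4.87, lay within the DOX + K27 range of 4.85 to 5.09. *Gpam*, which starts triglyceride synthesis, measured 31.9, 34.0 and 19.2 FPKM against 8.14, 9.39 and 13.9 and was called in the 3 settings other than as deposited (1.35 as deposited, limma adjusted p = 0.0850). *Idi1*, an isoprenoid isomerase, stood at 182, 167 and 35.5 against 47.8, 58.9 and 46.8. For both genes C4 was the lowest DOX + K35 library, and for *Idi1* it was below all DOX + K27 libraries. *Idi1* was called without C4 (1.76, limma adjusted p = 0.0379) and not with it.

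*Srebf1*, which encodes SREBP-1, measured 168, 135 and 72.4 FPKM against 65.3, 51.5 and 53.8 and was called after scaling without C4 (1.43, limma adjusted p = 0.0260). *Fasn*, the fatty acid synthase, stood at 199, 149 and 109 FPKM against 86.6, 55.9 and 48.7 and was not called in any of the 4 settings (1.25 as deposited, 95% interval −0.06 to 2.55). *Mlxipl*, which encodes ChREBP, went the other way, at 88.9, 56.1 and 171 FPKM against 169, 172 and 253, and was called lower without C4 (−1.45, limma adjusted p = 0.0445). Letters of the sterol regulatory element, TCACNCCAC, were found in the windows of 1 of 17 genes of this list (5.88%), that of *Mlxipl*, against 1.78% of the tested genes with a window.

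Among chaperones and genes of the unfolded protein response, calls came with the scaling, while the median difference hardly changed. Proteins that enter the endoplasmic reticulum are folded there by chaperones, and when unfolded proteins build up, the sensors ATF6, IRE1 and PERK raise the supply of chaperones. Of 26 genes tested, 0 were called as deposited or without C4 alone, and 10 were called higher and 1 lower after scaling, both with and without C4 (38.5% higher, beside 4.76% and 13.9% of all genes). The DOX + K35 libraries lay wholly above those of DOX + K27 for 21 of the 26, beside 30.6% of all genes. The median difference was 0.76 as deposited and 0.70 to 0.73 in the other settings. *Hyou1*, a chaperone of the reticulum, measured 41.4, 26.1 and 46.5 FPKM in DOX + K35 and 16.2, 14.0 and 13.4 in DOX + K27 (1.295 as deposited, limma adjusted p = 0.0935, and 1.26 after scaling, adjusted p = 0.0326). *Hspa13* stood at 9.55, 6.27 and 8.47 FPKM against 3.797, 3.32 and 1.99, *Dnajc3*, an inhibitor of PERK, at 46.7, 43.3 and 51.2 against 29.0, 23.7 and 15.6, and *Dnajb9* at 34.0, 23.3 and 29.7 against 17.9, 13.1 and 11.5. Each of these was called after scaling with and without C4.

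The sensor gene *Atf6* itself measured 8.23, 8.62 and 9.42 FPKM against 4.93, 5.01 and 4.41 (0.75 as deposited, limma adjusted p = 0.106, and 0.72 after scaling, adjusted p = 0.0386). *Hspa5*, the main chaperone of the reticulum, stood at 311, 205 and 291 FPKM against 142, 145 and 93.5, without overlap, and was not called in any of the 4 settings (1.08, 95% interval −0.03 to 2.20). *Trib3*, which ATF4 and CHOP induce under stress, was lower after scaling, at 1.14, 1.41 and 0.880 FPKM against 4.70, 4.17 and 5.08 (−1.38, limma adjusted p = 0.0363). The letters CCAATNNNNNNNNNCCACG, the endoplasmic reticulum stress element, were found on either strand in the windows of 5 of 17 genes of this list (29.4%), against 0.365% of the tested genes with a window and 0.119% of all windows. The matches that lie before the start are printed with the matched stretch in capitals, to show the element in these genes of the list.
Dnajc3 (chr14:118937807-118937865, plus strand): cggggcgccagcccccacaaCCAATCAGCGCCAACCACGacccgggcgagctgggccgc
Hspa5 (chr2:34772005-34772063, plus strand): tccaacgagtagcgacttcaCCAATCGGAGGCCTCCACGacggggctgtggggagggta
Canx (chr11:50325780-50325838, minus strand): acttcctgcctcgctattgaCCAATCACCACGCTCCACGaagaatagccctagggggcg
Creld2 (chr15:88819500-88819558, plus strand): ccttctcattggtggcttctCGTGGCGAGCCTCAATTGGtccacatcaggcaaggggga
Syvn1 (chr19:6046512-6046570, plus strand): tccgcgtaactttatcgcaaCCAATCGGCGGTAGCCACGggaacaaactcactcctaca
Having the letters did not go with a single direction, since *Canx* had a difference of 0.84 and *Creld2* of 0.82, while *Syvn1* was at −0.17.

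**Figure D4:**
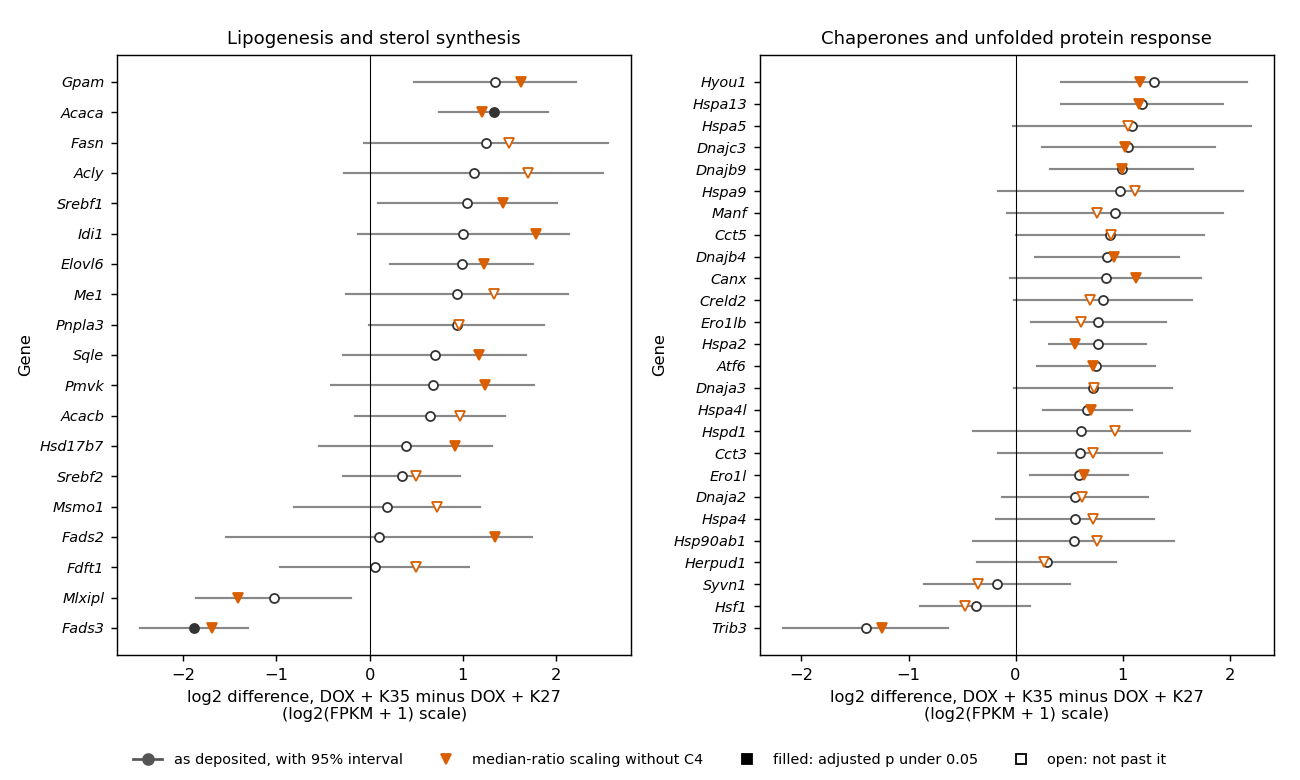
Circles give the log2 difference of each tested gene as deposited (x axis, DOX + K35 minus DOX + K27) with its 95% interval, and triangles the difference after median-ratio scaling without library C4, for fat and sterol synthesis (left) and for chaperones and the unfolded protein response (right); filled symbols passed the threshold. *Acaca* and *Fads3* are the filled circles on the left, none is filled on the right, and 11 triangles are filled on each side. The left panel leaves out 1 of the 20 tested genes.

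Drug-handling, amino acid and secretory genes of hepatocytes gave few calls. Of 23 cytochrome P450 genes, 0 were called as deposited or without C4, 3 were called higher after scaling (13% beside 4.76% of all genes), and 2 higher and 1 lower after scaling without C4 (8.7% and 4.35%, beside 13.9% and 8.62%). *Cyp2b10*, the standard target of the receptor CAR, measured 7.03, 8.05 and 41.6 FPKM against 3.56, 1.90 and 0.604. Its difference of 2.40 had a 95% interval of 0.95 to 3.84 and was called after scaling alone (limma adjusted p = 0.0482), and C4 held the high value. Without C4 the difference was 1.62 (limma adjusted p = 0.0955). *Cyp26a1*, which breaks down retinoic acid, stood at 39.8, 18.3 and 58.0 FPKM against 14.3, 8.79 and 11.6, and *Cyp2c39* at 6.52, 6.04 and 9.48 against 4.05, 3.71 and 3.29. Of 31 conjugation and glutathione genes, *Txnrd1*, a thioredoxin reductase, stood at 43.4, 34.7 and 41.7 FPKM in DOX + K35 and 23.7, 22.4 and 18.4 in DOX + K27 and was called higher after scaling (0.84, limma adjusted p = 0.0314), as was *Ugt2b35* (0.87, adjusted p = 0.0453).

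Of 25 amino acid and urea cycle genes, 0 were called as deposited, 2 were higher after scaling and 5 after scaling without C4. These shares of 8% and 20% were near those of all genes, 4.76% and 13.9%. *Cps1*, the entry enzyme of the urea cycle, measured 738, 622 and 579 FPKM against 341, 320 and 194 (1.19 after scaling, limma adjusted p = 0.0412), and *Mat1a*, which makes S-adenosylmethionine, 1144, 1226 and 2135 against 745, 805 and 572 (1.01 after scaling, adjusted p = 0.0445). C4 held the high value of *Mat1a*, and the call ended without it (0.79 after scaling, limma adjusted p = 0.0584). *Slc25a15*, the ornithine carrier, and *Ido2* were called after scaling without C4. Among plasma proteins and the acute phase, *Serpina3m* stood at 185, 219 and 321 FPKM against 101, 110 and 64.5 and was called after scaling (1.36, limma adjusted p = 0.0295). *Mug1*, *Apob*, *Apom*, *F13b* and *Itih4* had differences of 0.89 to 1.37 and were called after scaling without C4 alone. The other apolipoproteins of these lists were not called. Their differences were negative for *Apoa1* (−0.70), *Apoa2* (−0.66), *Apoc1* (−0.65), *Apoc4* (−0.46) and *Apoc3* (−0.41), and positive for *Apoa5* (0.41). The bile canalicular flippase *Atp8b1*, at 6.15, 5.99 and 3.93 FPKM against 2.68, 2.39 and 1.59, was called in the 3 settings other than as deposited (0.98, limma adjusted p = 0.0603 as deposited), and *Abcc3* after scaling without C4 alone. In nucleotide synthesis, *Prps1* and *Uck2* joined *Ctps* after scaling without C4, and 14 of 16 differences were positive as deposited.

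Further genes called when C4 was left out were *Tmed7*, a cargo carrier between the reticulum and the Golgi, at 23.7, 21.8 and 10.3 FPKM against 7.24, 5.83 and 2.72 (2.0 without C4, limma adjusted p = 0.0417), and *Odc1*, the first enzyme of polyamine synthesis, at 34.5, 32.4 and 17.4 against 12.9, 10.8 and 6.69 (1.67, adjusted p = 0.0417). *Slc35e1* was also called without C4 (1.197, limma adjusted p = 0.0445). In the other direction, *Lime1* (−1.63), *Gm45140* (−1.82), *Tmem25* (−1.47), *Klhdc8b* (−1.38) and the transporter *Slc12a9* (−1.63) were called lower without C4 and not as deposited. For *Slc12a9* C4 lay apart from its group, as C4 had 10.5 FPKM, DOX + K35 replicates 1 and 2 had 2.90 and 2.70, and DOX + K27 had 8.91, 9.04 and 15.3.

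Nuclear genes of RNA processing and transcription leaned lower in DOX + K35 replicates 1 and 2, while the list means of C4 lay within the DOX + K27 range. Of 32 splicing and RNA-binding genes, 28 differences were negative as deposited with a median of −0.44, and 0, 1, 2 and 8 were called lower as deposited, after scaling, without C4 and with both changes, with 0 higher in each. The 8 calls were 25% of the list, beside 8.62% of all genes. The DOX + K35 libraries lay wholly below those of DOX + K27 for 7 of the 32, beside 18.9% of all genes. The list's mean log2 value was 4.39 and 4.08 in DOX + K35 replicates 1 and 2, 4.96 in C4 and 4.75 to 5.11 in DOX + K27. *Hnrnpdl* measured 22.1, 17.1 and 35.4 FPKM against 42.5, 40.5 and 58.3 (−1.22 without C4, limma adjusted p = 0.0445), and *Luc7l2*, *Clk4* and *Hnrnph3* were called after scaling without C4 alone. Of 71 zinc finger genes, 63 differences were negative as deposited with a median of −0.26, and 0, 3, 5 and 11 were called lower in the same order, beside 0, 0, 0 and 1 higher. The lower calls were, in that order, 0%, 4.23%, 7.04% and 15.5% of the list, beside 1.69%, 3.98%, 4.22% and 8.62% of all genes. The DOX + K35 libraries lay wholly below those of DOX + K27 for 18 of the 71, beside 18.9% of all genes. The list's mean log2 value was 1.75 and 1.61 in DOX + K35 replicates 1 and 2, 2.01 in C4 and 1.95 to 2.15 in DOX + K27. *Zfp707* stood at 13.03, 11.1 and 14.1 FPKM against 22.7, 26.9 and 26.6 and was called in the settings other than as deposited. *Zfp579*, *Zfp182* and *Zfp692* had smaller differences of −0.79, −0.74 and −0.81.

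Lists that bear on the study's own questions gave few calls. Of 14 genes of glycolysis and gluconeogenesis tested, 0 were called as deposited, after scaling or without C4, and *Pcx*, pyruvate carboxylase, was called after scaling without C4 (0.86, limma adjusted p = 0.0488). *Pcx* measured 105, 125 and 104 FPKM in DOX + K35 and 69.4, 72.2 and 52.8 in DOX + K27. *Pgk1* stood at 158, 139 and 176 FPKM against 105, 102 and 55.0 (0.90, 95% interval −0.24 to 2.04), *Pfkl* had a difference of 0.64 (95% interval 0.04 to 1.24), and *Gapdh* one of −0.33 (95% interval −1.28 to 0.61). These intervals reach beyond 1 on the log2 scale. The list's median was 0.49 as deposited and 0.46 to 0.52 in the other settings. Among 20 p53 targets and senescence markers, *Gdf15* was the 1 call as deposited. *Bax* and *Gadd45b* were called lower after scaling without C4. For *Gadd45b*, C4 had 20.4 FPKM against 2.24 and 1.12 in the other DOX + K35 libraries and 3.63, 5.87 and 10.3 in DOX + K27. Sirtuin and NAD genes (5 tested) gave 0 calls as deposited, and *Sirt4* (lower) and *Nampt* (higher) passed after scaling without C4.

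*Acot3*, a peroxisomal thioesterase and target of PPAR alpha, measured 33.8, 39.6 and 12.7 FPKM in DOX + K35 and 52.5, 54.3 and 36.9 in DOX + K27, and did not differ past the threshold in any of the 4 settings (−0.85 as deposited, 95% interval −1.78 to 0.09). Of 35 PPAR alpha targets and fatty acid oxidation genes, 0 were called as deposited and 1 without C4, the hormone *Fgf21* (−1.26, limma adjusted p = 0.0367). *Fgf21* stood at 0.172 and 0.371 FPKM in DOX + K35 replicates 1 and 2, 2.50 in C4, and 1.04, 3.03 and 2.42 in DOX + K27. The median of this list changed sign with C4, from −0.08 with it to 0.13 without it. Major urinary proteins and other sex-dependent genes, which growth hormone controls in male liver, changed with C4. Their median was −1.37 as deposited and −1.39 after scaling, and −0.09 and −0.06 without C4, with 0 of 13 called in each of the 4 settings. The list's mean log2 value was 3.36 to 6.54 in DOX + K35, C4 being the lowest, and 6.33 to 6.76 in DOX + K27. All 13 mitochondrially encoded genes had negative differences in the 4 settings (median −0.80 as deposited), and 0 were called. Of 35 nuclear respiratory chain genes 26 were negative, and 0 were called in the 4 settings. The ribosomal list, taken by symbol prefix, mixed cytosolic and mitochondrial ribosomal protein genes and held the kinase gene *Rps6kb2*. That list (31 tested, 16 differences positive and 15 negative, median 0.07 as deposited), cell cycle genes (3) and long noncoding RNAs (1) gave 0 calls in the 4 settings as well. After scaling without C4 *Psmd1* of the proteasome was called (1.08), as were 2 higher and 2 lower of 14 DNA repair genes (14.3% each, beside 13.9% and 8.62% of all genes), *Apex1* (1.195), *Ddb1* (1.08), *Ercc6* (−0.62) and *Trp53bp1* (−0.71). Of 91 solute carriers and ABC transporters, 0 were called higher and 2 lower as deposited, 5 and 2 after scaling, 1 and 4 without C4, and 17 and 6 with both changes (18.7% and 6.59%, beside 13.9% and 8.62% of all genes). Of 14 clock genes, *Noct* was called higher in that setting (1.06) and *Cry1* in 2 of the 4 settings, beside *Nr1d1*.

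**Figure D5:**
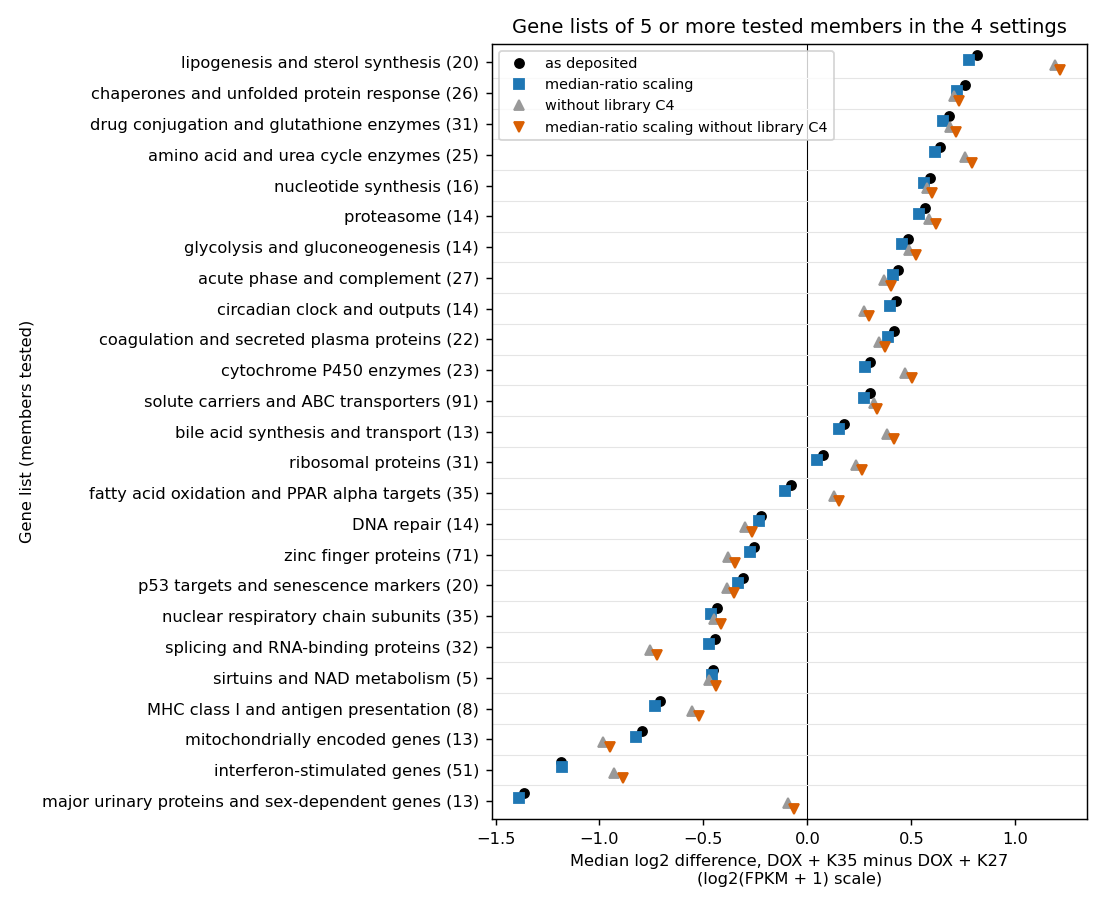
Each symbol is the median log2 difference of a gene list (x axis, DOX + K35 minus DOX + K27) in 1 of the 4 settings, for the lists with 5 or more tested members (y axis, members tested in parentheses). Fat and sterol synthesis and chaperones stand at the upper end (0.82 and 0.76 as deposited) and interferon-stimulated genes near the lower end (−1.19), while the major urinary protein list moves from −1.37 to −0.06 when C4 is left out after scaling.

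Each compound group can also be read against DOX, with the caution that both comparisons share the 3 DOX libraries, of which B4 had a low scaling factor (0.635, others 0.963 to 1.19). For *Isg15* the difference from DOX was −1.40 in DOX + K35 (adjusted p = 0.0701) and 1.296 in DOX + K27 (adjusted p = 0.178), neither past the threshold in limma, so the called difference between the compounds was made of a part on each side of DOX. *Mx1* stood at −0.93 (adjusted p = 0.00590) and 0.69 (limma adjusted p = 0.155), *Oas2* at −1.30 (adjusted p = 0.00567) and 0.50 (limma adjusted p = 0.247), and *Ifit3* at −0.56 and 1.66 (limma adjusted p = 0.417 and 0.155). Against Saline, DOX + K27 was higher for *Mx1* (1.33, limma adjusted p = 0.0289) and *Slfn4* (1.77, adjusted p = 0.0282). *Fads3* stood at −1.33 against DOX in DOX + K35 (adjusted p = 0.00499) and at 0.56 in DOX + K27 (limma adjusted p = 0.178).

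Among the higher genes, the difference from DOX lay on the K35 side for *Ctps*, *Acaca*, *Tfrc*, *Prkar2a* and *Wnt5b*. For *Rcan2* the DOX + K27 libraries lay above those of DOX as well. *Ctps* differed from DOX by 1.09 in DOX + K35 (adjusted p = 0.00496) and by 0.05 in DOX + K27 (limma adjusted p = 0.901). The values were 1.28 and −0.06 for *Acaca*, 0.96 and −0.28 for *Tfrc*, 1.12 and 0.10 for *Prkar2a*, and 0.99 and −0.04 for *Wnt5b*, in each case past the threshold in DOX + K35 and not in DOX + K27 (limma). *Cyp2b10* stood at 2.93 in DOX + K35, with the high value of C4 included, and 0.54 in DOX + K27. *Acot3* was above DOX with both compounds, by 1.89 (adjusted p = 0.00567) and 2.73 (limma adjusted p = 0.0367), from 5.10 to 7.17 FPKM in DOX. *Trib3* and *Fbf1* lay on the K27 side, with −0.14 and −0.09 from DOX in DOX + K35 and 1.26 and 1.25 in DOX + K27, neither past the threshold (limma adjusted p = 0.155 and 0.0969).

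For most genes the data bound the difference between K35 and K27 only loosely. As deposited, the 95% interval of the log2 difference lay within −1 to 1 for 1271 of the 3317 genes (38.3%), within −0.5 to 0.5 for 93 (2.80%) and within −2 to 2 for 3159 (95.2%). After scaling the first of these shares was 50%. A gene that was not called is therefore not shown to respond alike to both compounds. The differences also went with transcript length and GC content, with Spearman correlations across the 3129 annotated genes of 0.109 with length and −0.183 with GC as deposited (a description, as genes of 1 library share its depth and base composition). Genes called after scaling had a median transcript length of 3813 bases where higher and 2790 where lower, beside 3316 over all genes, and the part of length in these calls was not tested.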

How the data were processed

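Liver mRNA of 12 mice was sequenced by the authors, and 1 table of 12 value columns, named as differentially expressed genes, was used. Per the labels, the submitters' processing notes name HISAT2 and the build GRCm38, and the counting step and unit are not given in the sources used here. The deposited values were treated as FPKM made by the authors. They hold no counts, so depth and counting error are unknown, and the error given is that between libraries, each from a separate mouse. Library codes B3, B4 and C4 were matched to their groups only. A group size of 3 limits precision throughout.

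The 482 of 3799 rows whose mean was below 1 were dropped, the scale was log2(FPKM + 1), and limma 3.58.1 in R 4.3.3 (trended prior, one-way over 4 groups of 3) gave the contrast, its 95% interval and Benjamini-Hochberg adjusted p, with 0.05 as threshold. The fit was tested on simulated data. Positions and overlaps came from GENCODE M21 (GRCm38), which held all 3519 Ensembl identifiers, and promoters from RefSeq on GRCm38.p6. Genes were named by rule: among genes with a symbol called in all 4 settings the 12 largest rises and 12 largest falls, up to 4 called members of each gene list, up to 4 a direction lost or gained without C4, and *Ctps*, *Fads3* and *Acot3*. Any further gene is named with its values already known. Members, lists and tests were chosen with earlier results of these data known. Alternatives tried were other scalings, pseudocounts and filters, each library left out in turn, a replicate block, fewer groups in the fit, and removal of length and GC trends. Results on 2 genes are not reported here.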

Additional observations from a re-analysis of the deposited data

How the results depend on the processing

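The numbers of genes called moved with most settings, and the values below are all genes, then higher and lower in DOX + K35. They were 290 (158 and 132) after median-ratio scaling, 184 (44 and 140) without library C4, 748 (462 and 286) with both, 256 (36 and 220) with the 20 highest genes left out, 224 (126 and 98) after quantile normalization, 50 (7 and 43) with a pseudocount of 0.1, 89 (19 and 70) without the filter, 27 (4 and 23) with only the 6 libraries compared, 307 (115 and 192) with the trend on transcript length removed and 292 (122 and 170) with that on GC content removed. They were 12 (0 and 12) at an adjusted p under 0.01 and 53 (9 and 44) at one under 0.05 with a log2 difference of at least 1. The fits that each left out 1 of the other 11 libraries gave 16 to 282 genes, 1 to 145 higher and 14 to 137 lower, with the lowest total without DOX + K27 replicate 2 and the highest without DOX library B4. The median difference of all genes was 0.095 as deposited, −0.093 with the 20 highest genes left out, and 0.012 with the trend on length removed and 0.012 with that on GC removed. The cause was not tested.

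The replicate numbers that DOX + K35 and DOX + K27 share do not stand for shared animals. Deviations from the group means correlated at 0.286 and 0.337 between same-numbered libraries and at 0.232 and 0.239 between the others of these 2 numbers, and with 2 numbered pairs they were not treated as pairs. A fit with the replicate number as a block, on the 9 numbered libraries, gave 1448 genes (834 and 614), and the same libraries without the block gave 677 (307 and 370), a fit added after the data were seen. Depth limits could not be set, as the values hold no counts.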
